A study of Mus musculus with 4 samples.

Results

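The complement and coagulation factors that hepatocytes make were followed in mouse liver as a set of 44 genes. It held 21 genes of the complement system, 12 procoagulant or contact-phase genes and 11 anticoagulant or fibrinolytic genes. The last group includes Serpinf2 and Cpb2, which restrain fibrinolysis. A gene was taken when its symbol stood as such in the deposited table of liver mRNA differences, which lists 7000 genes. Of the 44 genes, 33 were listed (16 complement, 8 procoagulant or contact, 9 anticoagulant or fibrinolytic) and 11 were not. The complement genes not listed were C1ra, C1s, C2, Cfd and Masp2, the procoagulant or contact genes not listed were F2, F9, F13b and Klkb1, and the anticoagulant genes not listed were Proc and Tfpi. No synonym of these 11 was found in the table either, and they were not analysed here.

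Liver mRNA was sequenced in 4 male wild-type FVB/N mice, which received a torula yeast-based diet from weaning for 6 weeks. The diet of 2 mice held no added selenium (0 Se, mice 1 and 2), and that of the other 2 held 0.1 ppm Se as sodium selenite (0.1 Se, mice 4 and 5). The comparison asks how liver mRNA levels depend on dietary selenium. Each gene has 1 pooled value in the table and none per mouse. The spread between mice and the depth of each library were therefore not analysed here, and every error given is a standard error (SE) or 95% confidence interval back-calculated from the edgeR p-value of the authors' model with 2 mice per diet.

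Complement is a chain of plasma proteases and binding proteins that tag microbes with fragments of C3 and end in a pore assembled from C5 to C9. Coagulation is a second protease chain, which ends in thrombin and fibrin, and it is held in check by serpins, protein S and protein Z and undone by plasmin. The hepatocyte secretes most of these proteins, several of them as acute-phase reactants, whereas factor VIII, thrombomodulin and tissue factor pathway inhibitor are known mainly from endothelial cells and factor D (Cfd) from adipocytes.

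The levels of the set are given beside those of all listed genes and of hepatocyte markers. They do not show which cells made the members' mRNA. The listed members had a median mean level of 621 CPM (read counts scaled to the size of the library), against 18.7 CPM over all 7000 listed genes. Of 16 hepatocyte markers, 9 were listed, 0 were called, and their summed level was 60757 CPM in 0 Se and 62048 CPM in 0.1 Se mice. In whole liver, fewer cells of a type and less RNA per cell cannot be told apart. Thbd, which encodes thrombomodulin, was the member with the lowest level, at 3.93 CPM.

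None of the 33 listed members was called different between the diets. A gene was called when its false discovery rate (FDR, the Benjamini-Hochberg adjusted p of the deposited edgeR comparison) was under 0.05 and its change was above 1.5-fold, which 350 of 11033 tested genes (3.17%) met. Without the fold threshold 504 genes (4.57%) passed, and again 0 of the 33 members did, the lowest member FDR in edgeR being 0.111 for C9. At an unadjusted edgeR p under 0.05, 7 members passed, all with the higher level in 0.1 Se mice (C9, C6, Cfi, C8b, C4b, F7 and C8a), beside 732 of the tested genes (6.63%) that passed in the same direction. Among genes listed in the table, as the 33 members are, these were 732 of 7000, and among those above 100 CPM they were 137 of 931.

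The point estimates lay mostly on the side of 0.1 Se. The level was higher in 0.1 Se mice for 28 of the 33 listed members and lower for 5 (Masp1, F5, F12, Serpinc1 and Hrg), where all listed genes split into 3586 higher and 3414 lower. The median log2 fold change of the members was 0.19, a 1.14-fold difference, and that of all listed genes was 0.09. Among the 931 listed genes above 100 CPM, whose levels are closer to those of the members, 561 (60.3%) were higher in 0.1 Se mice and the median was 0.10. The folds of the members ran from 0.866 for Masp1 to 1.27 for C6. The standard deviation of the members' log2 fold changes was 0.14, and the median SE of a single member was 0.13. Whether members differ from each other beyond error was not tested, since unlisted members are left out and all SEs rest on the same mice.

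The precision set what could be seen. At the median SE of the members, a change of 1.31-fold was needed to reach an FDR under 0.05. For 30 of the 33 members the 95% interval lay wholly within 1.5-fold in either direction, and the intervals of C4b, C6 and Thbd reached above it, to 1.53-, 1.51- and 1.59-fold. The table ends at a p of 0.553, so that a tested gene with a larger p is missing from it. Were an unlisted member missing for that reason and measured with the members' median SE, its change would be within 1.05-fold, but a p above that limit and a failed filter on low counts cannot be told apart. With the 11 counted at a log2 fold change of 0, the median of the 44 was 0.11.

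**Figure D1:**
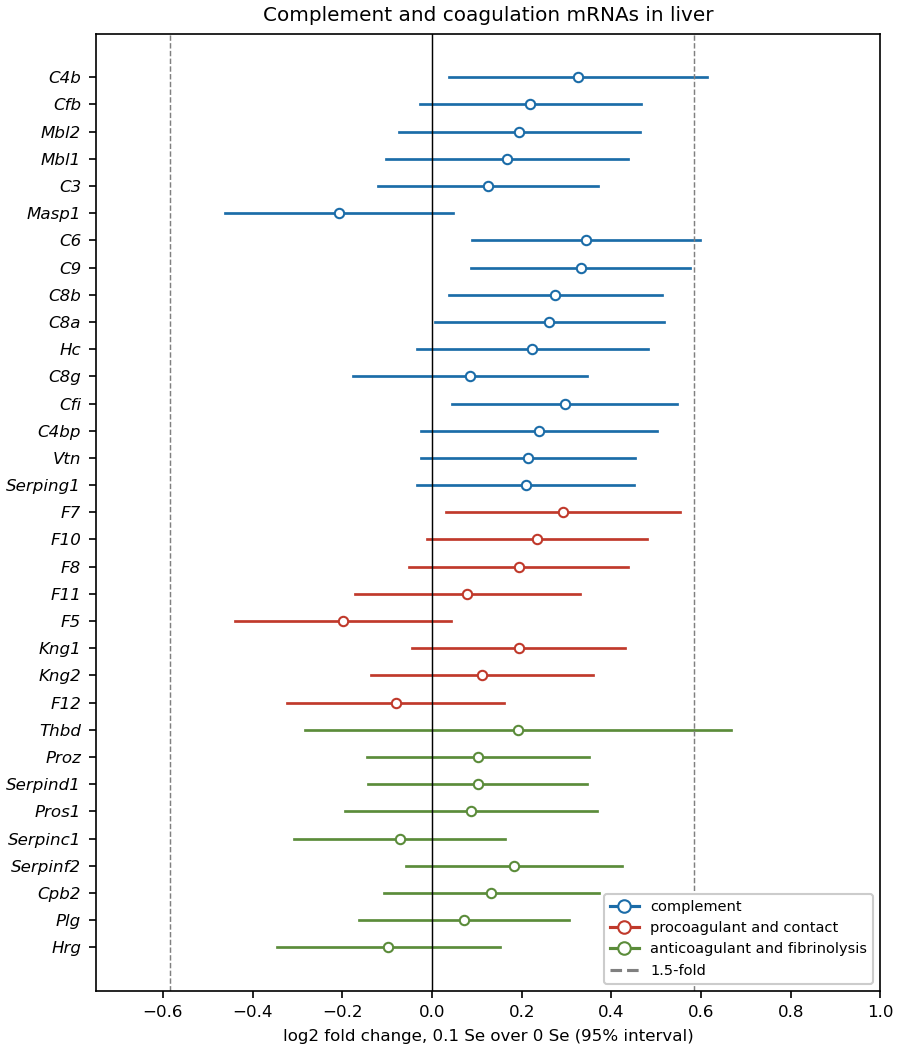
Log2 fold change of each listed complement and coagulation mRNA, 0.1 Se over 0 Se (horizontal axis), with its back-calculated 95% interval as a bar and genes grouped by role in 3 colours. The points of 28 genes lie right of 0 and those of 5 lie left, and every interval but those of C4b, C6 and Thbd stays between the dashed lines at a 1.5-fold change.

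Complement genes were 15 of the 28 members with a positive estimate and 16 of the 33 listed members. Of the 16 listed, 15 had the higher level in 0.1 Se mice, 0 were called, and the median log2 fold change was 0.22. Their levels summed to 18305 CPM in 0 Se and 21061 CPM in 0.1 Se mice. The 8 listed procoagulant or contact genes (6 higher, 2 lower, 0 called) had a median of 0.15. The 9 listed anticoagulant or fibrinolytic genes (7 higher, 2 lower, 0 called) had one of 0.10. That group mixes functions, since its Serpinf2 and Cpb2 restrain fibrinolysis. The differences between these 3 medians were not tested.

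Among the genes that start complement activation, 6 of 11 were listed, 5 of them higher in 0.1 Se mice and 0 called, and their median log2 fold change was 0.18. C3, the central component that all activation routes cleave, had the highest level of the set, 6639 CPM in 0 Se and 7240 CPM in 0.1 Se mice. Its fold was 1.09 (95% interval 0.920 to 1.29) at an edgeR FDR of 0.737. C4b, on chromosome 17 (mm9 chr17:34865325-34880827), encodes the C4 of the classical and lectin pathways. Its level was 1030 CPM in 0 Se and 1291 CPM in 0.1 Se mice, a fold of 1.25 (1.03 to 1.53) with an edgeR FDR of 0.241. The value is uncertain, since C4b has a near-identical copy, C4a, at 63.5 and 88.8 CPM, and unique alignment could split reads between them.

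Cfb encodes factor B, the protease subunit of the alternative pathway convertase. It stood at 1640 CPM in 0 Se and 1909 CPM in 0.1 Se mice, 1.16-fold (0.982 to 1.38) at an edgeR FDR of 0.425. The mannose-binding lectins Mbl1 and Mbl2, the sugar sensors of the lectin pathway, had folds of 1.12 (0.932 to 1.35) and 1.14 (0.950 to 1.38). Masp1, a lectin pathway protease that circulates bound to them, was the single listed complement gene with the lower level in 0.1 Se mice. Its level was 134 CPM in 0 Se and 116 CPM in 0.1 Se mice, a fold of 0.866 (0.726 to 1.03) with an edgeR FDR of 0.488.

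The set holds 6 genes of the membrane attack complex, which were all listed, and the level of each was higher in 0.1 Se mice. C7, the other gene of the complex, was outside the set and not listed. None was called, and their median log2 fold change was 0.27. C9, which polymerises into the wall of the pore, rested on 974 CPM in 0 Se and 1225 CPM in 0.1 Se mice. Its log2 fold change was 0.33 ± 0.12 (SE), or 1.26-fold (1.06 to 1.49), with the lowest edgeR FDR of the set, 0.111. C6, which binds C5b at the start of assembly, had the largest fold of the set, 1.27 (1.06 to 1.51), from 349.5 to 443 CPM at an edgeR FDR of 0.115. Both genes lie on chromosome 15 in mm9, C6 at chr15:4677175-4765456 and C9 at chr15:6395327-6448744.

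The C8 protein joins 3 chains, each from its own gene. C8b stood at 617 CPM in 0 Se and 747 CPM in 0.1 Se mice, 1.21-fold (1.03 to 1.43) at an edgeR FDR of 0.226. C8a stood at 1156 and 1386 CPM, 1.20-fold (1.01 to 1.43) at an edgeR FDR of 0.320. The third chain gene, C8g, had the smallest fold of the complex, 1.06 (0.885 to 1.27), from 362 to 384 CPM. Hc, the mouse gene for C5, was at 228 and 266 CPM, 1.17-fold (0.977 to 1.40). FVB mice are known to carry a frameshift allele of Hc and to lack plasma C5, and the Hc mRNA was listed here all the same.

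All 4 complement inhibitors made by the liver were listed, each with the higher level in 0.1 Se mice and 0 called, and they had a median log2 fold change of 0.23. Cfi, the protease factor I that cleaves C3b and C4b, had the largest fold, 1.23 (1.03 to 1.46), from 795 to 976 CPM, at an edgeR FDR of 0.209. C4bp, the cofactor of factor I for C4b, was at 792 and 934 CPM, 1.18-fold (0.983 to 1.41). Vtn (vitronectin, which keeps the terminal complex out of membranes) had the highest level among the 4, 2374 CPM in 0 Se and 2754 CPM in 0.1 Se mice, 1.16-fold (0.984 to 1.37). Serping1, the C1 inhibitor, which also blocks kallikrein and factor XIIa, had the smallest fold, 1.16 (0.977 to 1.37), from 576.5 to 666 CPM.

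Promoter letters are shown for complement genes, most of which had estimates of the same sign. RefSeq promoter windows (250 bases before to 50 bases after the start) were given for 33 of the 44 members. The letters GTTAAT, to which the hepatocyte factor HNF1 is known to bind as part of a longer site, were present on either strand in the windows of 9 of these 33 genes (27.3%), beside 7.1% of all 32851 promoters. They were C4bp, Hc, C8a, C8b, Vtn and Proz among the listed genes and C1ra, F2 and F13b among those not listed. The 5 complement genes with a listed value are shown, 60 bases each read 5′ to 3′ on the strand of the gene, with the match (GTTAAT, or ATTAAC when it lies on the other strand) in capitals. Each window was found once in the NCBIM37 (mm9) genome.
C4bp, chr1:132558230-132558289, minus strand: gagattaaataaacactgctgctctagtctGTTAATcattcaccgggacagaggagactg
Hc, chr2:34916977-34917036, minus strand: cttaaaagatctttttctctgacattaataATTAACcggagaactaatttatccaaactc
C8b, chr4:104438686-104438745, plus strand: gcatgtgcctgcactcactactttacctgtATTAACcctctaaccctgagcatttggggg
C8a, chr4:104549081-104549140, minus strand: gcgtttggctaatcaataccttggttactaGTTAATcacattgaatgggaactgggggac
Vtn, chr11:78312480-78312539, plus strand: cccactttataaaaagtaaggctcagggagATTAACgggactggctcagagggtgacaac
The capitals begin 64 bases before the start in C4bp and 74, 206, 107 and 112 bases before it in Hc, C8b, C8a and Vtn.

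Other letters of liver factors were searched in the same windows, on both strands. TTGCNNAA, a C/EBP-type motif, was found in 10 of the 33 members (30.3%) and 10.8% of all promoters. Its listed carriers included C9 and C3 on the complement side and also Serpinc1 and Hrg, whose levels were lower in 0.1 Se mice. TTCNNNGAA, the STAT-type motif, was found in 6 members (18.2%) and 8.3% of all promoters, C8a, Vtn and Pros1 being the listed ones. A match is a description of the letters and shows no binding.

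The vitamin K-dependent procoagulants carry a carboxylated domain that binds membranes, and 2 of 4 (F7 and F10) were listed. F7, which starts the extrinsic pathway with tissue factor, was at 76.3 CPM in 0 Se and 93.4 CPM in 0.1 Se mice. Its fold of 1.22 (1.02 to 1.47) was the largest among the procoagulants, with an edgeR FDR of 0.251. F10, whose product cleaves prothrombin, was at 478 and 562 CPM, 1.18-fold (0.992 to 1.39) at an edgeR FDR of 0.376. F2 (prothrombin) and F9 were not listed.

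The remaining clotting factors did not share a direction. F5, the cofactor of factor Xa, was at 1088 CPM in 0 Se and 948 CPM in 0.1 Se mice, a fold of 0.871 (0.737 to 1.03) at an edgeR FDR of 0.480. F8, the cofactor of factor IXa, had the opposite sign with 94.4 and 108 CPM, 1.14-fold (0.965 to 1.35), and F11, the protease above factor IX, was at 113 and 119 CPM, 1.06-fold (0.887 to 1.26). F5 and F8 encode related proteins of similar build, and their mRNAs are of similar length, 7406 and 7507 bases. The difference between their folds was not tested.

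In the contact and kinin system, 3 of 4 genes were listed. Kng1, which encodes kininogen, the source of bradykinin, had the highest level, 1711 CPM in 0 Se and 1955 CPM in 0.1 Se mice, 1.14-fold (0.970 to 1.35). Its paralog Kng2 was at 207 and 224 CPM, 1.08-fold (0.910 to 1.28). Both values are uncertain, since Kng1 and Kng2 are similar enough to split or lose reads. F12, which starts the contact phase, had the lower level in 0.1 Se mice, 400.4 against 424 CPM, a fold of 0.945 (0.800 to 1.12).

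Of the 7 anticoagulants, 5 were listed, 4 of them higher in 0.1 Se mice and 0 called, at a median log2 fold change of 0.10. Serpinc1 (antithrombin, the main inhibitor of thrombin and factor Xa) had the highest level, 2033 CPM in 0 Se and 1934 CPM in 0.1 Se mice, a fold of 0.951 (0.808 to 1.12). Serpind1, heparin cofactor II, was at 791 and 848 CPM, 1.07-fold (0.906 to 1.27). Proz, the protein Z that carries an inhibitor to factor Xa, was at 374 and 402 CPM, also 1.07-fold (0.905 to 1.28). Pros1, the protein S cofactor of activated protein C, was at 80.9 and 86.0 CPM, 1.06-fold (0.875 to 1.29). Thbd had the largest estimate, 1.14-fold, and by far the widest interval (0.821 to 1.59), at 3.67 and 4.19 CPM.

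The fibrinolysis genes were listed for 4 of 4, 3 of them higher in 0.1 Se mice. Plg, the precursor of plasmin, had the highest level, 2346 CPM in 0 Se and 2465 CPM in 0.1 Se mice, 1.05-fold (0.893 to 1.24), and an edgeR FDR of 0.871, the highest in the set. Serpinf2, the plasmin inhibitor antiplasmin, had the largest fold of the 4, 1.14 (0.961 to 1.34), from 844 to 958 CPM. Cpb2, whose product trims fibrin so that plasmin binds it less, was at 380.0 and 416.5 CPM, 1.10-fold (0.928 to 1.29). Hrg, histidine-rich glycoprotein, a plasminogen-binding plasma protein, was at 946 and 885 CPM, a fold of 0.935 (0.787 to 1.11).

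Per kilobase of mRNA, the members spanned 3 orders of magnitude. Vtn had the highest level at 1469 CPM per kilobase, followed by C3 at 1352 and Serpinc1 at 918. The zymogens of clotting were lower, with F10 at 193, F11 at 51.8 and F7 at 45.7 CPM per kilobase. The C8 chain genes stood close to each other at 350 (C8a), 305 (C8b) and 357 (C8g) CPM per kilobase, whereas C6 was at 140 and Hc at 45.3. F8 at 13.5 and Thbd at 1.06 CPM per kilobase closed the order. Without values of single mice, which neighbours in this order differ beyond their spread was not tested.

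**Figure D2:**
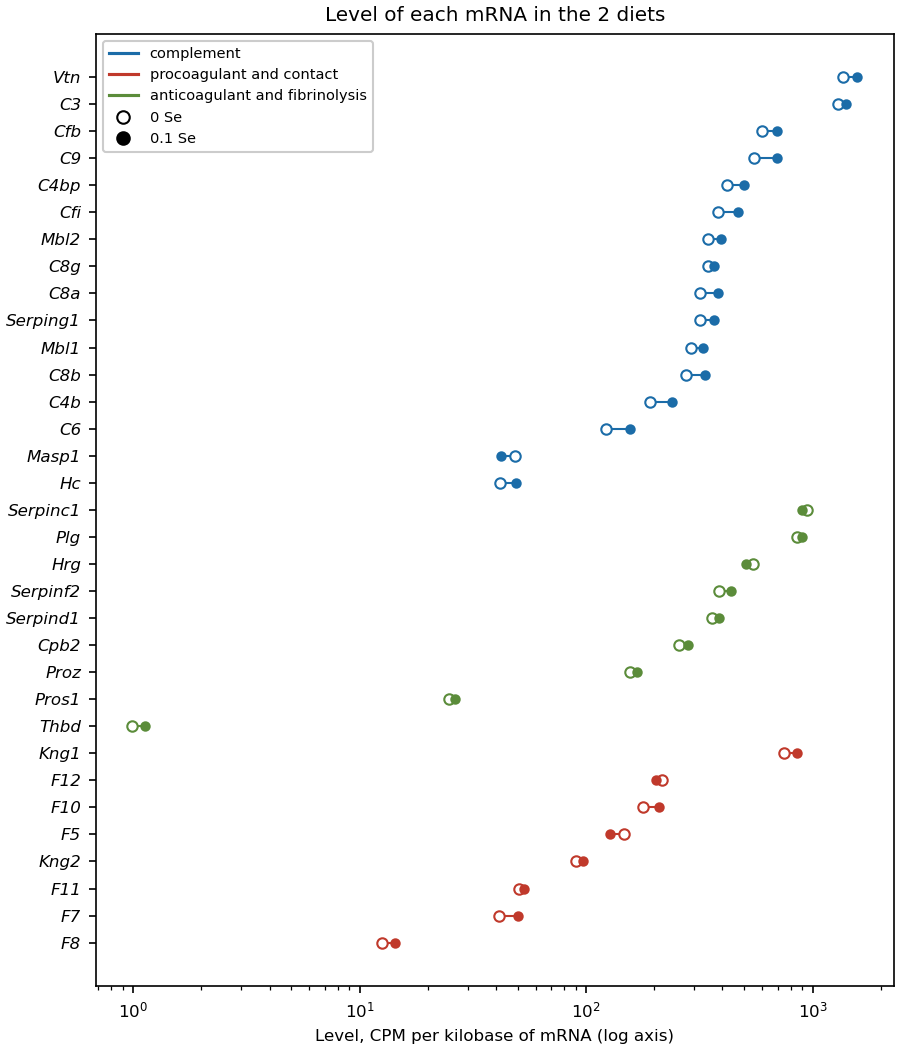
Level of each listed member in CPM per kilobase of mRNA (log axis), open circles for 0 Se and filled circles for 0.1 Se. Both levels were computed from the gene's mean over all mice and its fold. The gap between the diets within a gene is small beside the range between genes, from Thbd at 1.06 to Vtn at 1469 CPM per kilobase.

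Several members are chromosomal neighbours, and their values are given side by side. C8b and C8a lie 11130 bases apart on chromosome 4 and had log2 fold changes of 0.27 and 0.26. F7, F10 and Proz lie in a row on chromosome 8, with gaps of 1498 and 4231 bases, and had 0.29, 0.23 and 0.10. Hrg, Kng2 and Kng1 adjoin on chromosome 16, with gaps of 24197 and 28763 bases, and had −0.10, 0.11 and 0.19. Neighbours thus had like values at some of these places and unlike values at others, and no test was made of it.

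The fold changes of all listed genes ran with mRNA length. The fitted shift in log2 fold change went from 0.16 in the shortest of 20 length classes (median 646 bases) to −0.22 in the longest (median 9719 bases). The listed members had a median length of 2244 bases, against 2960 bases over all listed genes. With the trend removed, the members' median log2 fold change was 0.15 and that of all listed genes 0.02, 27 members were higher and 6 lower, and 0 were called. The complement median moved from 0.22 to 0.21. F5, a long mRNA, moved from −0.20 to −0.05, and F8 from 0.19 to 0.35. C4b moved from 0.33 to 0.46 and C8g from 0.08 to −0.03. RNA quality of the libraries was not analysed here, and its part in the trend was not tested.

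**Figure D3:**
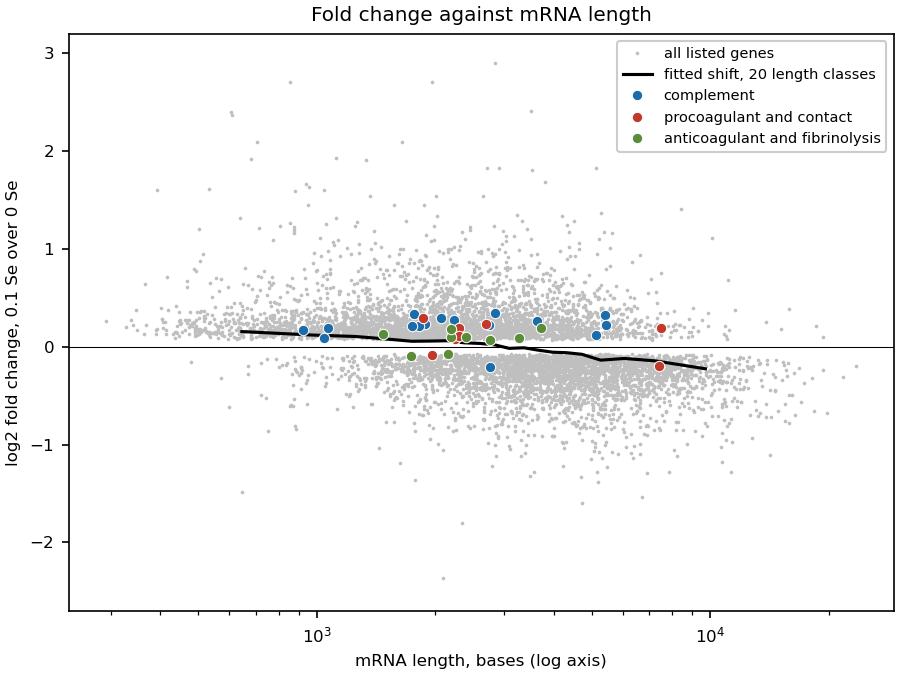
Log2 fold change of all 7000 listed genes (grey) and of the members (coloured by role) against mRNA length in bases (log axis), with the fitted shift over 20 length classes as a line. The line falls from 0.16 to −0.22, and most members sit above it; the empty band at 0 is where genes with a p above 0.553 are missing from the table.

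Complement genes outside the set included called ones. Of 34 such genes (receptors, regulators and components known from other cells), 17 were listed, 15 higher and 2 lower in 0.1 Se mice, and 5 were called, all higher. The C1q chain genes C1qa, C1qb and C1qc encode the recognition unit of the classical pathway, known from macrophages. C1qa was at 45.9 CPM in 0 Se and 77.4 CPM in 0.1 Se mice, 1.69-fold (1.40 to 2.03) at an edgeR FDR of 5.23e-06. C1qb rose 1.62-fold (1.34 to 1.95) at an edgeR FDR of 9.8e-05, and C1qc rose 1.68-fold (1.41 to 2.01) at 2.81e-06. Cfp, the macrophage and neutrophil product properdin, which stabilises the alternative convertase, rose 1.66-fold (1.35 to 2.05) at an edgeR FDR of 2.17e-04. Itgb2, the shared chain of the complement receptor integrins, rose 1.77-fold (1.38 to 2.26) at an edgeR FDR of 5.13e-04. Vsig4, the complement receptor of Kupffer cells, was not called, with a fold of 1.35 (1.13 to 1.62) at an edgeR FDR of 0.0311, which became 0.153 with the length trend removed. With that trend removed 5 of these genes were again called, C1qb having moved from a log2 fold change of 0.69 to 0.58 (FDR 0.00316), just short of 1.5-fold, and C4a from 0.48 to 0.62 (FDR 0.0420), just past it.

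Markers of Kupffer cells, the liver macrophages, moved in the same direction as these genes. Of 12 marker symbols 9 were listed, all higher in 0.1 Se mice, 5 of them called (Cd5l, Emr1, Marco, Mpeg1 and Timd4, the last not called with the length trend removed, at an FDR of 0.0911), and their summed level was 572 CPM in 0 Se and 912 CPM in 0.1 Se mice. Vsig4 belongs to both lists, and Cd68 and Lyz2 were not listed, nor was Adgre1, the newer symbol of Emr1. The part of these cells in the C1q values was not tested. The hepatocyte-made partners of C1q in the C1 complex, C1ra and C1s, were not listed.

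Of 36 coagulation genes outside the set, 22 were listed, 20 higher and 2 lower in 0.1 Se mice, and 1 was called. This was Fgl1, a fibrinogen-like protein secreted by hepatocytes, and nothing here shows that it acts in clotting. Its level was 129 CPM in 0 Se and 489 CPM in 0.1 Se mice, 3.80-fold (2.94 to 4.91) at an edgeR FDR of 5.12e-21. Fgb, the β chain of fibrinogen, had a fold of 1.32 (1.12 to 1.56), from 6624 to 8775 CPM, at an edgeR FDR of 0.0268, and Serpina10, the protein Z-dependent inhibitor of factor Xa, one of 1.34 (1.12 to 1.60) at 0.0362. Neither was called, and with the length trend removed their FDRs were 0.122 and 0.143. The fibrinogen chains Fgg and Fga had folds of 1.29 and 1.27 at edgeR FDRs of 0.0638 and 0.174. Proz, which works with Serpina10, had 1.07-fold at an edgeR FDR of 0.797, and the difference between the pair was not tested.

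**Figure D4:**
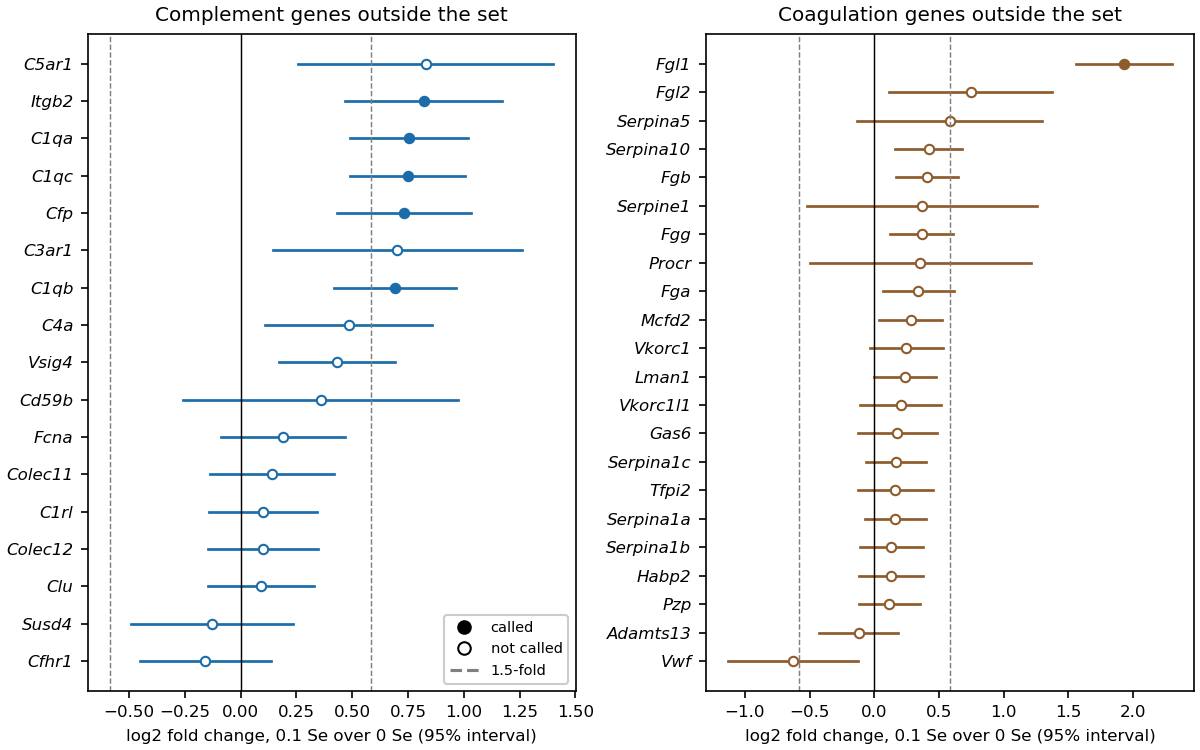
Log2 fold change, 0.1 Se over 0 Se, with 95% interval, of the 17 listed complement genes (left) and 22 listed coagulation genes (right) outside the set, filled where called. The called complement genes are C1qa, C1qb, C1qc, Cfp and Itgb2. The called gene of the coagulation list is Fgl1, a fibrinogen-like protein, at a 3.80-fold change.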

How the data were processed

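RNA from the livers of 2 mice per diet was depleted of ribosomal RNA and made into stranded libraries. Per the submitters' notes and methods, the authors aligned reads with Bowtie to the longest RefSeq mRNA of each mm9 gene, kept unique alignments with up to 2 mismatches, and tested genes above 1 CPM in at least 3 samples with edgeR. For the authors' edgeR run, its version, test and normalization were not given in the sources used. The deposited values are a log2 fold change (0.1 Se over 0 Se), a log2 mean CPM, a p-value and an FDR per gene. These columns are the authors' own comparison of the diets and were used as deposited, because no counts per mouse were given to test. The p-values come from the authors' model of 2 mice per diet. The SEs and intervals drawn from them need not equal each gene's own spread between mice, and the precision per mouse is unknown.

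The number tested, 11033, follows from FDR, rank and p. To obtain each SE, the fold on the log2 scale was divided by the normal quantile that its p implies. CPM per diet were computed from the mean and the fold. The length trend was fitted over 20 classes with genes beyond 3 SE trimmed and unlisted large p-values allowed for. The fit was tested on simulated data, in which 200 of 11033 genes were changed. The simulated trend was a straight line on log2 length, steeper than the fitted one, with errors drawn from the back-calculated SEs. With this simulated trend, removal left 4 false calls in place of 73, and without one, false calls were 5 before and 5 after. The counts need not hold for the trend in these data. With the trend, the fitted log2 shift was off by 0.00313 at the median gene and by up to 0.173 for single genes. GC content was matched for 6933 genes (99.0%).

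Promoters came from RefSeq (GRCm38.p6), and the windows printed were matched letter for letter to NCBIM37. Members, gene lists (other complement, other coagulation, cell type markers, hepatocyte factors) and tests were chosen with earlier results of these data known. Text names every called member or member with an FDR under 0.05, and in each role the largest, smallest and most abundant, with every other member at least in brief. Of the other pathway genes it names those that passed, and Fga, Fgg and C4a were added after their values were seen. A further complement gene outside the set was left out and is not reported here. Alternatives were other call rules (an FDR of 0.01, no fold threshold, Bonferroni, a test against 1.5-fold), a minimum of 5 CPM, and removal of the length or GC trend. Scripts ran under Python 3.11.15 with pandas 2.3.3 and numpy 2.4.6, quantiles came from scipy 1.17.1, and plots from matplotlib 3.10.9.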

Additional observations from a re-analysis of the deposited data

How the results depend on the processing

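The count of called members was 0 under all 7 alternatives tried. An FDR under 0.01, Bonferroni and the test against 1.5-fold are stricter than the main rule. They could only return 0 and say nothing about how firm the count is. Of the complement genes outside the set, 0 passed a test against a 1.5-fold change in place of 5, and of the coagulation genes outside it, 3 passed an FDR under 0.05 with no fold threshold in place of 1. With unlisted genes counted at 0, the median log2 fold change of the complement activation genes was 0.00 in place of 0.18 and that of the vitamin K-dependent procoagulants 0.12 in place of 0.26, since 5 of 11 and 2 of 4 of those genes were not listed. C8g turned to −0.031 from 0.08 with the length trend removed, and F12 to 0.0002 from −0.08 with the GC trend removed, and each move is smaller than the SE of its gene. The GC trend for single genes and roles, the count of unlisted genes at 0 and the alternatives for genes outside the set were chosen after seeing the data. Leaving out single mice and a count model were not run, because the table given holds no value for a single mouse. No paired analysis was run, since different mice received each diet and no pairing between them was given.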

Other observations

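Of 17 hepatocyte transcription factors and signal transducers 16 were listed, 6 higher and 10 lower in 0.1 Se mice. Prox1, a homeobox factor of hepatocytes, fell from 77.3 to 48.5 CPM, a fold of 0.627 (0.470 to 0.836) at an edgeR FDR of 0.0364. With the length trend removed its log2 fold change moved from −0.67 to −0.62, still past 1.5-fold, at an FDR of 0.0838. Stat3, which carries the interleukin-6 signal to acute-phase genes, had a fold of 1.34 (1.12 to 1.60) at an edgeR FDR of 0.0324 and was not called, being short of the fold threshold. Hnf4a was not listed.

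Markers of other liver cells had values of their own. All 10 stellate cell markers were listed and lower in 0.1 Se mice, 4 of them called, with a summed level of 597 CPM in 0 Se and 440.4 CPM in 0.1 Se mice. With the length trend removed their median log2 fold change moved from −0.53 to −0.35, and Reln was no longer called (−0.61 to −0.39, FDR 0.201). Of 13 endothelial markers 8 were listed, 2 higher and 6 lower, with 0 called in edgeR and a summed level of 487 and 440 CPM. Of the neutrophil markers 2 of 6 were listed, both higher with 1 called. This was S100a8, whose FDR went from 0.0185 in edgeR to 0.0528 with the length trend removed. Its computed levels, 0.479 CPM in 0 Se and 1.46 CPM in 0.1 Se mice, are uncertain. The filter asked for above 1 CPM in at least 3 samples. In addition, 1 of 6 adipocyte and 1 of 5 cholangiocyte markers was listed, both lower and not called.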
